A study of Mus musculus with 24 samples.

Results

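Rgs8, Rgs16, Rgs5 and Rgs4 are 4 genes of mouse chromosome 1 that lie as neighbouring pairs, Rgs8 beside Rgs16 and Rgs5 beside Rgs4. They are 4 of the 51697 named genes in the count table, and all 4 passed the filter on low counts. They were selected on their scaled read counts (CPM, counts scaled to a common library total) over all 12 groups of these same libraries. The ground was that auxin moved the pairs in opposite directions. On days 4 and 6 of differentiation Rgs8 and Rgs16 were lower with auxin, and Rgs5 and Rgs4 were higher. This split was not seen on day 2 or in embryonic stem cells. Because of that selection, their auxin values are given below as a description without a test. Their course through untreated differentiation is no auxin contrast and was tested. It shares the control libraries with the contrasts that chose them, and the selection drew on all 12 groups. The p-values of that course are therefore not independent of the selection.

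RGS proteins are regulators of G protein signalling. A receptor that couples to a G protein loads its alpha subunit with GTP, and an RGS protein speeds the hydrolysis of that GTP, which ends the signal. All 4 genes encode small members of the R4 subfamily, which act mainly on alpha subunits of the Gi/o and Gq classes. Rgs4 is abundant in neurons of the forebrain and Rgs8 in cerebellar Purkinje cells, Rgs5 is a widely used marker of pericytes, and Rgs16 is induced by many signals in immune cells and liver. The Rgs4, Rgs5 and Rgs16 proteins are also short-lived in mammals, because an N-terminal cysteine marks them for arginylation and proteolysis, so RNA levels need not follow protein levels.

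All libraries come from F123, a line of mouse embryonic stem (ES) cells from a hybrid cross, in which CTCF carries an auxin-inducible degron (CTCF-AID). CTCF is a zinc-finger protein that binds DNA and anchors chromatin loops, and auxin leads to destruction of the tagged protein; the degron is carried by the untreated cells too, and auxin-treated cells without it are not analysed here. The groups are ES cells with 24, 48 or 96 h of auxin and at 0 h, cells taken through neural progenitor differentiation with auxin and without it (control) for 2, 4 or 6 days, and cells harvested 2 days after a washout of the auxin, done on day 4 or on day 6. The dose was 1 µl of 500 mM auxin for each ml of medium, renewed every 24 h. Each of the 12 groups has 2 libraries, 24 in all, and nothing in the labels says whether the replicates were separate cultures. The p-values then cover only the differences among these libraries, which may be technical.

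Library totals ran from 24696374 to 72048935 counts. The 4 ES libraries of replicate 1 were the smallest, at 24696374 to 29909368, against 51686150 to 61681404 in replicate 2. Even numbers made up 59.6% to 78.0% of the counts between 1 and 20, depending on the library, so low counts may hold fewer independent reads than they show. Summed over 8 pluripotency markers, the day 6 control libraries had 298 and 306 CPM and the ES 0 h libraries 3540 to 4050 CPM. Pax6, a neural progenitor marker, had 32.7 and 33.1 CPM in day 6 control cells and 7.89 and 2.68 CPM in ES 0 h cells, whereas Sox1 had 14.5 and 16.4 CPM in day 6 control cells and 18.1 and 7.12 CPM in ES 0 h cells. The RNA of Ctcf does not check the treatment, since auxin acts on the protein: it stood at 214 to 287 CPM in the auxin libraries of days 2 to 6 and at 204 to 230 CPM in the controls of those days.

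In the mm10 build, Rgs8 spans chr1:153653025-153700323 on the plus strand and Rgs16 spans chr1:153740349-153745468 on the same strand, with 40.0 kb between them. Rgs5 spans chr1:169655501-169695813 on the plus strand and Rgs4 spans chr1:169741477-169747642 on the minus strand, with 45.7 kb between them. The Rgs5 and Rgs4 genes therefore point toward each other, while Rgs8 and Rgs16 point the same way. The pairs are 15.9 Mb apart, and no other protein-coding gene lies within either pair. Antisense genes overlap Rgs8 (Gm29529, with 0 counts in every library) and Rgs16 (Gm28513, with 1 count in all 24 libraries together). No source used here says whether the counting used strand, so reads of a member and of its antisense partner cannot be told apart.

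The stretches before the start sites are shown because the treatment removes a DNA-binding protein and because the auxin response differs between the pairs. Each is the 150 bases upstream of a RefSeq start (GRCm38.p6, the same assembly as mm10), read 5′ to 3′ on the strand of the gene, with motif matches in capitals. Rgs8 has 3 start sites in RefSeq, and the gene counts do not tell which one was used. Number 3 is printed, at chr1:153665523-153665672, and it is the only one of the 3 with a match to the CTCF motif searched below. The Rgs16 stretch is chr1:153740203-153740352, the Rgs5 stretch is chr1:169655351-169655500 and the Rgs4 stretch, on the minus strand, is chr1:169747643-169747792.
Rgs8 (start 3): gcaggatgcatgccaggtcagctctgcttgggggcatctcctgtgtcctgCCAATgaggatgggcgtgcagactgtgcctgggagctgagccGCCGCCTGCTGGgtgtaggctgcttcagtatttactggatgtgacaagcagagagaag
Rgs16: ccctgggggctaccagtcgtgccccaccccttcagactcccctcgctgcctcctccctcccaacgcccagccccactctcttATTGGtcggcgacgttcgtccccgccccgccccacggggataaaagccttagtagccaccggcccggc
Rgs5: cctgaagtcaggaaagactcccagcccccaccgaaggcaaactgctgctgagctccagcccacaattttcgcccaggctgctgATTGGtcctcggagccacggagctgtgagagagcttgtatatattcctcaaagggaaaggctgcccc
Rgs4: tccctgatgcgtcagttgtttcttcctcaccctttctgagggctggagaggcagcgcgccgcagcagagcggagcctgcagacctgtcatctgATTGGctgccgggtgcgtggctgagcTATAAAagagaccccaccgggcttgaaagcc

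The motifs searched, on both strands, were the CCAAT box (CCAAT), the TATA box (TATAAA) and the core of the CTCF motif (CCA, any 2 letters, AG, any 2 letters, GGC), over a 300-base window from 250 bases before to 50 bases after each start. All 4 genes matched an entry, with 6 windows between them. Before Rgs8 start 3, the 12-letter run in capitals is the CTCF core read on the opposite strand, at chr1:153665615-153665626, and its first base lies 58 bases upstream of the start. Of 32851 windows in the RefSeq table, 2.43% hold such a match. None of the other 5 windows did, which says only that these letters are not in them. Rgs16, Rgs5 and Rgs4 each have a CCAAT box read on the opposite strand (ATTGG), at 68, 67 and 57 bases upstream. Rgs8 start 3 has one on its own strand at 100 bases, and Rgs8 start 2 has one on the opposite strand at 152 bases. Of all windows, 37.4% hold this motif. Rgs4 alone of the 4 had the exact letters TATAAA, at 31 bases upstream, and 13.6% of all windows hold them. Variants of the TATA box were not searched, so the other genes may hold one that was missed. These matches are letters in a sequence and not measurements of binding.

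Through untreated differentiation, Rgs8 was up by day 2 and Rgs4 by day 4, both from levels near 0, Rgs5 was up by day 6, and Rgs16 passed no test in the fit of 24 libraries. Rgs4 had 0.158 and 0.0406 CPM in the ES 0 h libraries, 0.136 and 0.21 CPM on day 2, 5.72 and 4.47 CPM on day 4, and 7.13 and 7.57 CPM on day 6. Its step therefore lay between day 2 and day 4. The log2 fold change of day 4 over day 2 control cells was 4.85 ± 0.31 (SE; adjusted p = 4.9e-09, edgeR quasi-likelihood test with Benjamini-Hochberg adjustment over 23831 genes). In that comparison 24.1% of all tested genes changed. Day 6 over ES 0 h gave 6.43 ± 0.37 on the log2 scale (edgeR adjusted p = 3e-10), a comparison in which 43.7% of tested genes changed. Day 6 over day 4 control cells gave 0.53 ± 0.23, which did not pass (edgeR adjusted p = 0.28) but did with DESeq2 (0.56, adjusted p = 0.037) and in edgeR with the 16 differentiation libraries alone (0.54, adjusted p = 0.0032). Only 6 reads of Rgs4 lie behind the ES 0 h level, and the ratio of summed counts, 91.7, has an exact 95% interval of 42 to 250 for counting error alone.

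Rgs8 rose earlier. It had 0.0789 and 0.0406 CPM in ES 0 h cells (2 reads in each library), 0.665 and 0.451 CPM on day 2, 1.2 and 1.03 CPM on day 4, and 1.3 and 1.73 CPM on day 6. All libraries of a later day lay above those of the day before. Day 2 over ES 0 h gave a log2 fold change of 3.29 ± 0.53 (edgeR adjusted p = 2.9e-04), where 18.2% of tested genes changed, and day 6 over ES 0 h gave 4.74 ± 0.51 (edgeR adjusted p = 6.8e-07). The later steps were smaller than the fit could separate. Day 4 over day 2 control cells gave 1.00 ± 0.36 with an edgeR adjusted p of 0.053, and 1.02 with an adjusted p of 0.0077 when the 16 differentiation libraries were fitted alone, a fit that called 52.1% of its genes. From the 4 ES 0 h reads, the ratio of day 6 to ES 0 h summed counts was 28.6, with an exact 95% interval of 11 to 106 for counting error, or 7.72 to 239 with all counts halved.

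Rgs5 rose after day 2. It had 0.474 and 0.203 CPM in ES 0 h cells, 0.17 and 0.24 CPM on day 2, 0.836 and 0.636 CPM on day 4, and 2.96 and 3.65 CPM on day 6. The ES 0 h and day 2 libraries overlapped, and both later days lay above them. Day 6 over ES 0 h gave a log2 fold change of 3.39 ± 0.61 (edgeR adjusted p = 2.1e-04). Day 4 over ES 0 h gave 1.23 ± 0.63, which did not pass (edgeR adjusted p = 0.14, in a comparison with 38.4% of genes changed). Day 6 over day 4 control cells gave 2.17 ± 0.53 (edgeR adjusted p = 0.019), where 5.11% of tested genes changed, and day 4 over day 2 gave 1.82 ± 0.61 (edgeR adjusted p = 0.037). Leaving out any 1 of the 4 libraries of a step ended that step's call: the log2 fold change then ran from 2 to 2.39 for day 6 over day 4, with edgeR adjusted p of 0.058 to 0.23, and from 1.62 to 2.09 for day 4 over day 2, with 0.072 to 0.21.

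Rgs16 was the most evenly expressed of the 4. It had 0.908 and 2.8 CPM in ES 0 h cells, 2.32 and 1.91 CPM on day 2, 1.62 and 1.15 CPM on day 4, and 2.33 and 2.37 CPM on day 6. The ES 0 h libraries differed from each other by more than the days did. None of the 3 control days passed the edgeR test against ES 0 h, at log2 fold changes of 0.15 ± 0.43, -0.46 ± 0.43 and 0.30 ± 0.43 for days 2, 4 and 6 (adjusted p = 0.85, 0.43 and 0.59). These values rest on the ES 0 h library chosen: day 6 over ES 0 h was -0.25 without ES 0 h replicate 1 and 1.39 without replicate 2, where it passed (edgeR adjusted p = 0.031). Within differentiation, day 4 over day 2 gave -0.61 and day 6 over day 4 gave 0.76 ± 0.43 (edgeR adjusted p = 0.34 and 0.45). With the 16 differentiation libraries alone both passed, at -0.59 and 0.78 (adjusted p = 0.014 and 0.0048), in fits that called 52.1% and 26.7% of all genes.

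**Figure D1:**
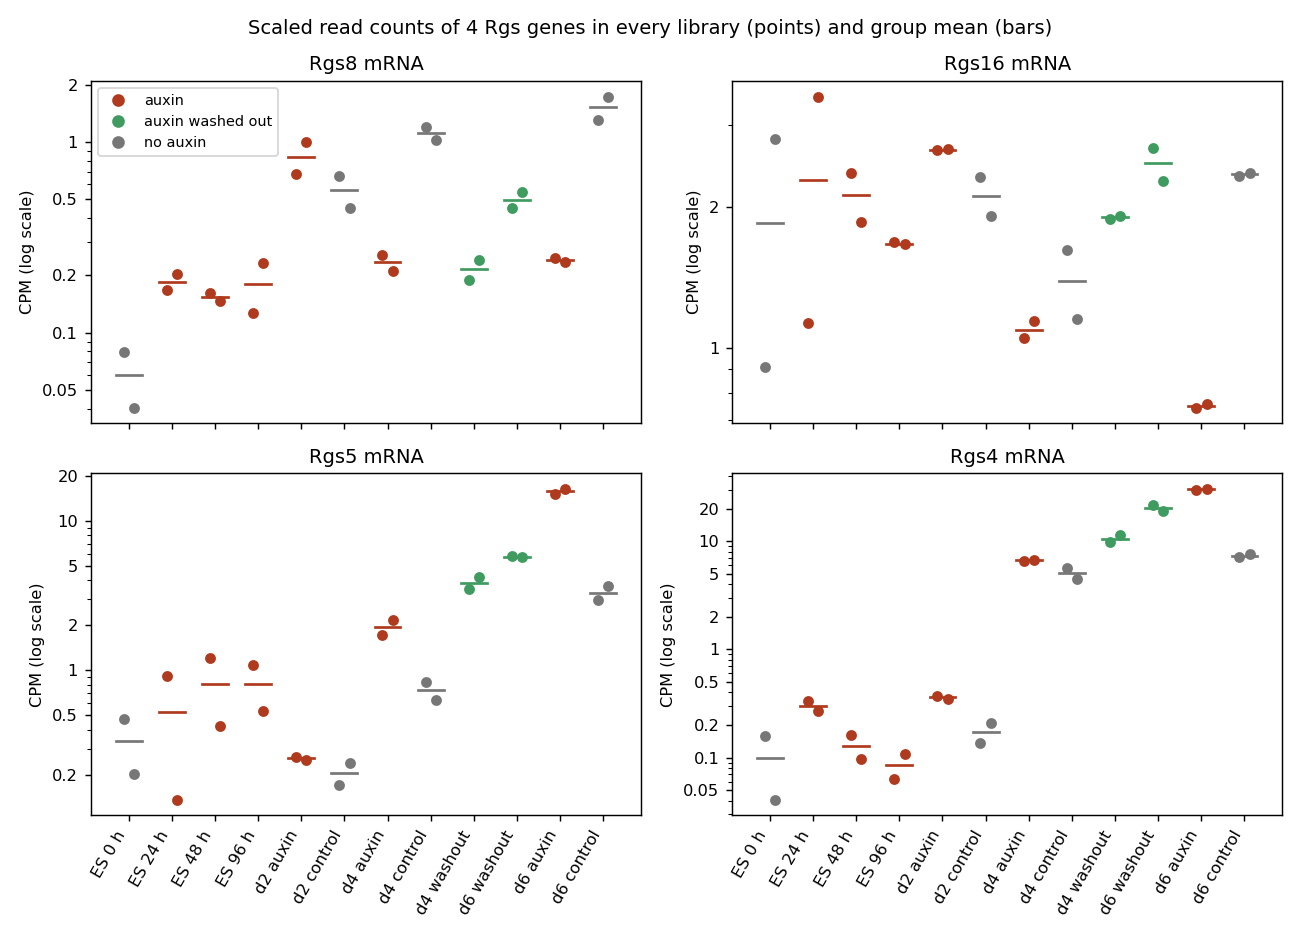
Scaled read counts (CPM, log axis) of Rgs8, Rgs16, Rgs5 and Rgs4 in each of the 24 libraries; points are libraries, horizontal bars are means of 2 libraries, and colours mark auxin, washout and no auxin. On day 6 the auxin points of Rgs8 and Rgs16 lie below the control points and those of Rgs5 and Rgs4 lie above them, with Rgs4 reaching 30.5 CPM.

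The auxin values are those the genes were selected on, and they are described from the latest day back to ES cells. On day 6 Rgs8 had 0.248 and 0.234 CPM in auxin cells, against 1.3 and 1.73 CPM in control cells, a log2 fold change of -2.64 ± 0.39. Rgs16 had 0.744 and 0.757 CPM in auxin cells, against 2.33 and 2.37 CPM in control cells (-1.65 ± 0.45). Rgs5 had 15.1 and 16.3 CPM in auxin cells, against 2.96 and 3.65 CPM in control cells (2.24 ± 0.50). Auxin and control libraries were far apart for each of these genes, and replicates lay close together. Rgs4 had 29.8 and 30.5 CPM in auxin cells, against 7.13 and 7.57 CPM in control cells (2.04 ± 0.24). The fold differences were 4.74 for Rgs5 and 4.1 for Rgs4, and auxin cells held 0.159 of the control level of Rgs8 and 0.319 of that of Rgs16. The libraries of all 4 genes did not overlap on day 6, where 6.56% of tested genes changed by the edgeR test, a background from which nothing is read here because the contrast chose the genes. The share of all genes whose auxin and control libraries did not overlap was not counted, on this or any other day. The standard errors come from the spread of all 24 libraries, which is wider than that of the day 6 libraries.

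On day 4 Rgs8 and Rgs5 already stood well apart from their controls. Rgs8 had 0.257 and 0.212 CPM in auxin cells, against 1.2 and 1.03 CPM in control cells, a log2 fold change of -2.24 ± 0.39. Rgs5 had 1.72 and 2.16 CPM in auxin cells, against 0.836 and 0.636 CPM in control cells (1.40 ± 0.52). The other member of each pair moved little. Rgs16 had 1.05 and 1.14 CPM in auxin cells, against 1.62 and 1.15 CPM in control cells (-0.34 ± 0.44). Rgs4 had 6.55 and 6.77 CPM in auxin cells, against 5.72 and 4.47 CPM in control cells (0.39 ± 0.23). The auxin libraries of all 4 genes lay on the same side of their controls as on day 6, with the nearest Rgs16 libraries almost equal, and 3.37% of all tested genes changed in the day 4 comparison.

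On day 2 all 4 genes were higher in both auxin libraries than in both control libraries. How many of all genes separate in this way was not counted, so nothing is read from it. Rgs4 had 0.375 and 0.348 CPM in auxin cells, against 0.136 and 0.21 CPM in control cells, a log2 fold change of 1.04. Rgs8 had 0.676 and 0.996 CPM in auxin cells, against 0.665 and 0.451 CPM in control cells (0.59). The differences of Rgs16 (2.65 and 2.66 CPM with auxin, against 2.32 and 1.91 CPM) and Rgs5 (0.263 and 0.253 CPM with auxin, against 0.17 and 0.24 CPM) were smaller, at log2 fold changes of 0.33 and 0.32. Apart from Rgs16, these levels rest on 8 to 63 reads a library, and 1.31% of all tested genes changed on that day. By these values Rgs8 and Rgs16 changed sides between day 2 and day 6, and that change was not tested. The day 2 value of Rgs16, 0.33, was within its standard error of 0.42, and that of Rgs8 was 0.59 ± 0.37.

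In ES cells auxin acted without differentiation, and the levels of Rgs8, Rgs5 and Rgs4 were low. Rgs8 had 0.0789 and 0.0406 CPM at 0 h, 0.167 and 0.204 CPM at 24 h, 0.161 and 0.147 CPM at 48 h, and 0.127 and 0.233 CPM at 96 h. Every auxin library lay above both 0 h libraries, at log2 fold changes of 1.75, 1.44 and 1.74, from 4 to 13 reads a library with auxin and 2 at 0 h. Rgs16 had 0.908 and 2.8 CPM at 0 h, 1.13 and 3.45 CPM at 24 h, 2.37 and 1.86 CPM at 48 h, and 1.68 and 1.67 CPM at 96 h. The auxin and 0 h libraries of Rgs16 overlapped at all 3 times, though at 24 h each was above the 0 h library of the same replicate number. Rgs5 had 0.474 and 0.203 CPM at 0 h, 0.918 and 0.136 CPM at 24 h, 1.2 and 0.425 CPM at 48 h, and 1.08 and 0.538 CPM at 96 h, and as a group it was separate from 0 h only at 96 h. Within replicate numbers, Rgs5 was above 0 h in both libraries at 48 h and at 96 h, and in replicate 1 alone at 24 h. Rgs4 had 0.158 and 0.0406 CPM at 0 h, 0.334 and 0.272 CPM at 24 h, 0.161 and 0.098 CPM at 48 h, and 0.0635 and 0.108 CPM at 96 h, and was separate only at 24 h. Among all tested genes, 1.29%, 2.98% and 8.20% changed at 24, 48 and 96 h. Rgs5 was higher in replicate 1 than in replicate 2 in all 4 ES groups, and same-numbered ES libraries also deviated together across all genes.

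**Figure D2:**
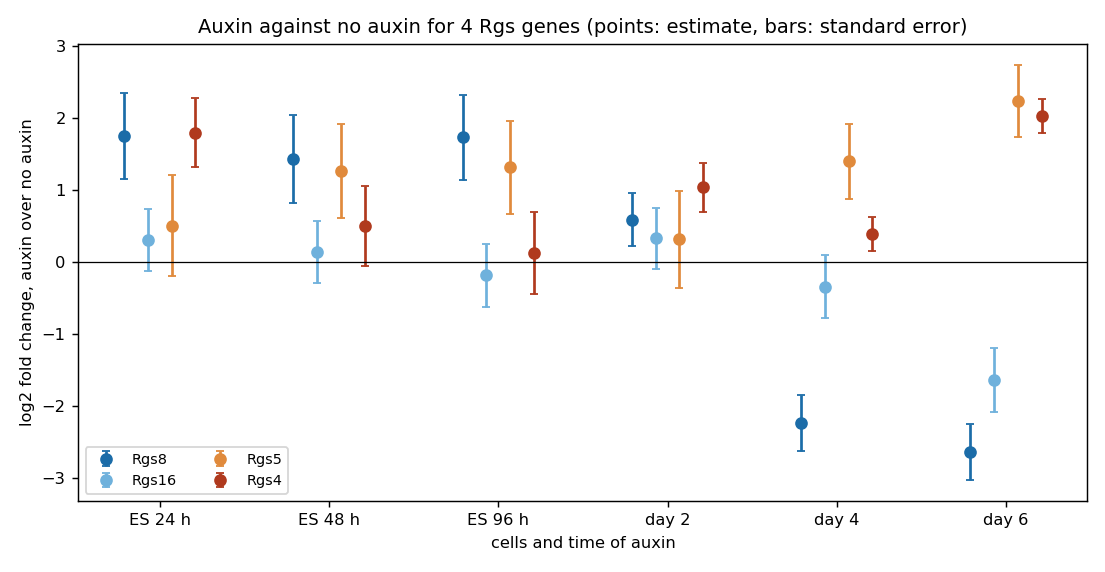
Log2 fold change of auxin over no auxin for the 4 genes at each time, with ES cells at 24, 48 and 96 h set against ES 0 h and differentiating cells set against the control of the same day; points are estimates and bars are standard errors from the fit of 24 libraries. All 4 estimates are above 0 on day 2, and on days 4 and 6 Rgs8 and Rgs16 are below 0 and Rgs5 and Rgs4 above it.

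After washout the members did not move as a block. Cells washed out on day 4 were harvested 2 days later and can be set beside both day 6 groups, whereas cells washed out on day 6 have no auxin or control group of the same harvest day. These comparisons share their auxin or control libraries with the day 6 contrast, and none is tested for the members. Among all genes, 6.74% changed for day 4 washout over day 6 auxin cells and 6.86% over day 6 control cells, and 9.81% and 9.88% changed for day 6 washout over the same groups. Rgs16 had 1.89 and 1.91 CPM after washout on day 4, against 0.744 and 0.757 CPM in day 6 auxin cells and 2.33 and 2.37 CPM in day 6 control cells, so it stood between them. Rgs5 had 3.5 and 4.21 CPM after washout on day 4, against 15.1 and 16.3 CPM in day 6 auxin cells and 2.96 and 3.65 CPM in day 6 control cells. Its washout libraries overlapped the control libraries. Rgs4 had 9.77 and 11.4 CPM after washout on day 4, against 29.8 and 30.5 CPM in day 6 auxin cells and 7.13 and 7.57 CPM in day 6 control cells, closer to control than to auxin. Rgs8 had 0.189 and 0.241 CPM after washout on day 4, against 0.248 and 0.234 CPM in day 6 auxin cells and 1.3 and 1.73 CPM in day 6 control cells. Alone of the 4, it kept to the auxin level, at a log2 fold change of -0.16 ± 0.42 against day 6 auxin cells and -2.80 ± 0.40 against day 6 control cells. These Rgs8 levels rest on few reads, 10 and 14 after washout on day 4 and 15 and 13 in day 6 auxin cells.

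Washout on day 6 left another order. Rgs16, at 2.68 and 2.27 CPM after washout on day 6, was at the level of the day 6 control libraries (log2 fold change 0.07 ± 0.42). Rgs8 had 0.45 and 0.547 CPM after washout on day 6, above both day 6 auxin libraries and below both day 6 control libraries (1.04 and -1.60). Rgs5 had 5.83 and 5.7 CPM, a log2 fold change of -1.44 against day 6 auxin cells and 0.80 against day 6 control cells. Rgs4 had 21.8 and 19 CPM after washout on day 6, at -0.57 ± 0.23 against day 6 auxin cells and 1.47 ± 0.23 against day 6 control cells. These washout cells were harvested 2 days after both day 6 groups, so time and treatment cannot be told apart. The washout groups were also tested against each other, a contrast that holds no untreated cells and no cells under auxin, though the genes were selected over all 12 groups. The washout groups differ both in harvest day and in length of auxin treatment, which cannot be told apart. Day 6 over day 4 washout gave log2 fold changes of 0.95 ± 0.23 for Rgs4, 1.20 ± 0.40 for Rgs8, 0.58 for Rgs5 and 0.38 for Rgs16, and none of the 4 passed the edgeR test (adjusted p = 0.12, 0.41, 1 and 1), in a comparison where 0.336% of all genes changed. Before adjustment, p was 0.00072 for Rgs4 and 0.0082 for Rgs8, both from edgeR's test across all genes. With the 16 differentiation libraries alone Rgs4, Rgs8 and Rgs5 passed (edgeR adjusted p = 3.2e-05, 0.044 and 0.016), where 13.2% of all genes did, and DESeq2 on all libraries called Rgs4 (adjusted p = 4.2e-05).

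Levels of different genes were compared per kilobase of annotated exon, which is 9640 bases for Rgs8, 2339 for Rgs16, 4546 for Rgs5 and 3098 for Rgs4. In ES 0 h cells Rgs16 was the most abundant of the 4 on that scale, at 0.793 CPM per kb, and Rgs5 followed at 0.0744, Rgs4 at 0.032 and Rgs8 at 0.0062. In day 6 auxin cells Rgs4 led at 9.73 CPM per kb, followed by Rgs5 at 3.45, Rgs16 at 0.321 and Rgs8 at 0.025. In day 6 control cells Rgs4 led at 2.37 CPM per kb, followed by Rgs16 at 1.01, Rgs5 at 0.727 and Rgs8 at 0.157. Rgs5 and Rgs16 therefore exchange places between the day 6 groups. All 4 are of low abundance, and none exceeded 30.5 CPM in any library.

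Across the 12 groups, each gene had its own order. Rgs4 was highest in day 6 auxin cells, followed by day 6 washout, day 4 washout, day 6 control, day 4 auxin and day 4 control cells, and in each of these steps all libraries of the higher group lay above those of the next. Rgs5 began with the same 4 groups, at means of 15.7, 5.76, 3.85 and 3.31 CPM, but its day 4 washout and day 6 control libraries overlapped. Its 3 lowest groups were ES 0 h, day 2 auxin and day 2 control cells. Rgs8 was highest in day 6 control, day 4 control and day 2 auxin cells, and its day 6 auxin, day 4 auxin, day 4 washout and ES auxin libraries overlapped with their neighbours in the order. For Rgs16, the groups from the highest mean, 2.65 CPM in day 2 auxin cells, down to 1.67 CPM in ES cells at 96 h each overlapped with the next, and the groups that stood below were day 4 control, day 4 auxin and day 6 auxin cells.

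As a description over the 12 group means of log2 CPM, which share libraries and scaling, Rgs5 and Rgs4 had a Pearson r of 0.874 and Rgs8 and Rgs16 one of 0.307. Between the pairs, r ran from -0.43 for Rgs16 with Rgs5 to 0.384 for Rgs8 with Rgs4. Among the 13208 genes whose log2 CPM averaged 1 or more, the patterns most like that of Rgs4 were those of Zfp651, Synpo (r = 0.988 each) and Ttr (0.984), and most like that of Rgs5 those of Wars2 (0.982), Atxn1 (0.966) and Hivep2 (0.965). Rgs8 was closest to Pde10a (0.93), Eml1 (0.901) and Lgi2 (0.888), and Rgs16 to Ercc1 (0.877), Smim26 (0.79) and Sfr1 (0.777). The auxin differences of these genes were of other sizes, and Ttr did not rise with auxin on day 6 as Rgs4 did. Ttr had 37.4 and 35.9 CPM in day 6 auxin cells, against 41.6 and 40.4 CPM in day 6 control cells, and Wars2 had 25.7 and 27.5 CPM in day 6 auxin cells, against 19.3 and 20.2 CPM in day 6 control cells.

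The 5 protein-coding genes on each side of each pair gave a local background. Of these 20 neighbours 17 were tested, and on day 6 under auxin 1 was higher, 0 lower and 16 did not pass the edgeR test, with a median log2 fold change of 0.06, against 0.02 for all tested genes and 6.56% of genes changed. The gene that rose was Lmx1a, which encodes a homeodomain transcription factor and lies 1806.8 kb from Rgs5. It had 2.08 and 1.82 CPM in day 6 auxin cells, against 0.945 and 0.988 CPM in day 6 control cells (log2 fold change 1.01 ± 0.28, edgeR adjusted p = 0.036), and without any 1 of these 4 libraries the gene did not pass. The gene next to Rgs8, Npl, 103 kb away, had 233 and 241 CPM in day 6 auxin cells, against 189 and 179 CPM in day 6 control cells (0.36 ± 0.22, edgeR adjusted p = 0.5). Nuf2, a kinetochore gene 124 kb from Rgs5, had 75.1 and 74.5 CPM in day 6 auxin cells, against 77.2 and 75.9 CPM in day 6 control cells.

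How many neighbours changed depended on the libraries that set the spread. With the 16 differentiation libraries fitted alone, 6 neighbours were higher and 3 lower in day 6 auxin cells, where 29.2% of all genes changed. Among the higher ones were Npl, Lmx1a, Ddr2, Uap1 and Uhmk1, and among the lower ones Rxrg and Ccdc190. Their log2 fold changes in that fit ran from -1.14 for Rxrg to 1.00 for Lmx1a. Ddr2, a collagen receptor gene 224.7 kb beyond Rgs4, gave 0.96. Next to Rgs4, Ccdc190 gave -0.95 while Rgs4 and Rgs5 were higher. In that fit the changed genes stood among others that did not pass, such as Dhx9, Lamc1 and Nuf2.

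**Figure D3:**
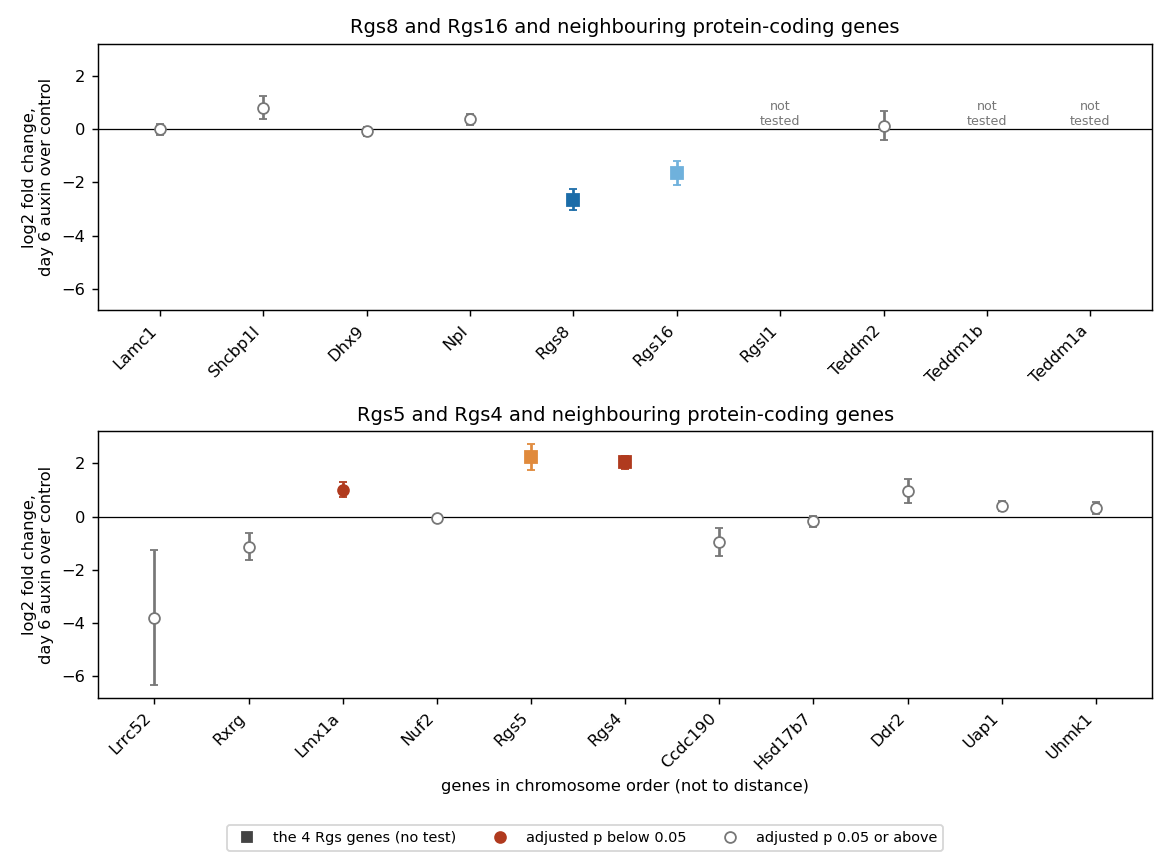
Log2 fold change of day 6 auxin over day 6 control cells for each pair and neighbouring protein-coding genes, in chromosome order and not to distance; bars are standard errors of the fit of 24 libraries, squares are the 4 Rgs genes and the filled red circle is a neighbour at an adjusted p below 0.05. The members stand between -2.64 and 2.24, and Lmx1a at 1.01 is the single neighbour marked among those drawn; the wide bar is Lrrc52, which had few reads.

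The list of other RGS genes holds 16, 7 of them also on chromosome 1, and 12 were tested. On day 6 under auxin 0 were higher, 1 was lower and 11 did not pass, with a median log2 fold change of -0.12, a share of calls close to the 6.56% over all tested genes. The lower gene was Rgs2, an R4 member that acts mainly on Gq and lies at chr1:143999338-144004161. It had 1.06 and 1.01 CPM in day 6 auxin cells, against 4.54 and 5.1 CPM in day 6 control cells (log2 fold change -2.22 ± 0.39, edgeR adjusted p = 0.0014). With the 16 differentiation libraries alone, Rgs2 was again the single gene called among the 12, where 29.2% of all genes were. Through untreated differentiation the family moved in both directions: from ES 0 h to day 6 control cells, 4 of 12 rose, 3 fell and 5 did not pass, against 43.7% of all genes changed. Those that rose were Rgs7 (3.78), Rgs2 (2.51), Rgs10 (2.36) and Rgs12 (0.84), and those that fell were Rgs20 (-3.49), Rgs14 (-2.65) and Rgs11 (-1.21), on the log2 scale with edgeR adjusted p from 1.2e-07 to 0.034. Rgs7 belongs to the R7 subfamily of the nervous system, and Rgs10, Rgs12 and Rgs14 to the R12 subfamily.

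**Figure D4:**
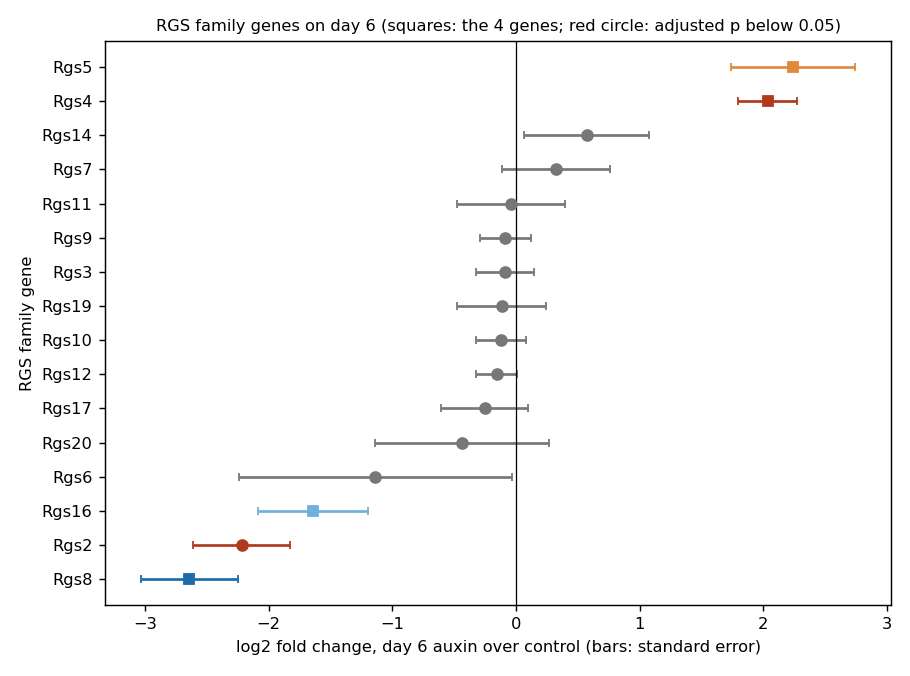
Log2 fold change of day 6 auxin over day 6 control cells for the 16 RGS family genes that passed the filter, with standard errors; squares are Rgs8, Rgs16, Rgs5 and Rgs4, and the red circle is a gene at an adjusted p below 0.05. Rgs5 and Rgs4 lie at 2.24 and 2.04, Rgs8, Rgs2 and Rgs16 at -2.64, -2.22 and -1.65, and the other genes lie between -1.14 and 0.57.

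The G proteins on which these regulators act were counted in the same comparisons. Of 33 alpha, beta and gamma subunit genes 31 were tested, and from ES 0 h to day 6 control cells 14 rose, 6 fell and 11 did not pass, where 43.7% of all tested genes changed. Gnao1, the Go alpha subunit of neurons, rose by 2.53 ± 0.39 on the log2 scale (edgeR adjusted p = 4.1e-05), and Gnaq, the Gq alpha subunit, by 1.15 ± 0.18 (3.8e-05). On day 6 under auxin 0 subunits were higher, 2 were lower and 29 did not pass, a share close to the 6.56% of all tested genes that changed. The lower ones were the gamma subunit genes Gng2 (14.8 and 16.4 CPM with auxin, against 50.1 and 48.4 CPM in control cells, edgeR adjusted p = 8.1e-04) and Gng3 (2.33 and 2.81 CPM with auxin, against 6.24 and 5.95 CPM in control cells, edgeR adjusted p = 5.7e-04). Neither call was of an alpha subunit: Gnao1 gave a log2 fold change of -0.59 ± 0.36 and Gnaq one of -0.01 ± 0.17.

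Among 8 genes of effectors, phospholipases C beta and the GIRK potassium channels, 2 were higher and 1 lower in day 6 auxin cells and 5 did not pass the edgeR test, against 6.56% of all tested genes changed. Plcb1, a phospholipase that Gq activates, had 2.36 and 1.95 CPM in day 6 auxin cells, against 10.9 and 10 CPM in day 6 control cells (log2 fold change -2.28 ± 0.39, edgeR adjusted p = 0.001). Kcnj3, which encodes a GIRK channel subunit, had 1.77 and 1.5 CPM in day 6 auxin cells, against 0.293 and 0.521 CPM in day 6 control cells (1.99 ± 0.43, edgeR adjusted p = 0.0064). Plcb4 had 51.6 and 54.5 CPM in day 6 auxin cells, against 29.9 and 29.3 CPM in day 6 control cells (0.84 ± 0.23, edgeR adjusted p = 0.037). Of 7 genes of the N-terminal cysteine pathway that degrades Rgs4, Rgs5 and Rgs16 proteins, 0 passed in either direction on day 6 under auxin, and 0 had an unadjusted edgeR p below 0.05. The arginyltransferase gene Ate1 gave 0.31 ± 0.17 (edgeR adjusted p = 0.42).

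Markers of cell types moved with the day 6 comparison as well, and in bulk RNA fewer cells of a type and less RNA per cell cannot be told apart. All 8 neuron markers were lower in day 6 auxin cells by the edgeR test, with a summed level of 22.5 to 23 CPM, against 252 to 264 CPM in day 6 control cells. Of 6 neural progenitor markers 4 were lower and 0 higher, and of 8 pluripotency markers 5 were higher and 0 lower, against 6.56% of all tested genes changed. The summed progenitor level differed little, at 584 to 595 CPM in day 6 auxin cells, against 614 to 621 CPM in day 6 control cells. The progenitor markers Nes and Vim did not pass (edgeR adjusted p = 0.69 and 0.95). For the mural cell markers, which bear on Rgs5 as a pericyte gene, 1 of 10 was higher, 1 lower and 8 did not pass, and the summed level was 154 to 155 CPM in day 6 auxin cells, against 205 to 212 CPM in day 6 control cells. In ES 0 h cells the neuron markers summed to 216 to 276 CPM and the mural markers to 190 to 317 CPM. Neither sum was therefore particular to its cell type. The higher one was Anpep, an aminopeptidase gene, at 19.5 and 18.8 CPM in day 6 auxin cells, against 10.9 and 9.38 CPM in day 6 control cells (edgeR adjusted p = 0.048). For day 6 control over ES 0 h cells Anpep gave a log2 fold change of -2.47 (edgeR adjusted p = 1.2e-06). The lower one was Vtn, which encodes vitronectin, at 0.76 and 0.541 CPM in day 6 auxin cells, against 11.5 and 11.6 CPM in day 6 control cells (edgeR adjusted p = 2.1e-05). Higd1b and Kcnj8, whose expression is more restricted to mural cells, did not pass (edgeR adjusted p = 0.91 and 0.083). Higd1b was at 0.116 and 0 CPM in day 6 auxin cells, against 0.0163 and 0.0549 CPM in day 6 control cells. Kcnj8 had 0.611 and 0.541 CPM in day 6 auxin cells, against 1.82 and 1.41 CPM in day 6 control cells. After washout on day 6 the summed mural level was 239 to 250 CPM, with Kcnj8 at 10.3 CPM in both libraries. Against day 6 control cells, 3 of the 10 mural markers were then higher and 1 lower, where 9.88% of all tested genes changed. Against day 6 auxin cells 3 were higher and 0 lower, where 9.81% changed. Rgs5 was then below its day 6 auxin level and above its day 6 control level. The neuron markers were at 40.7 to 43.4 CPM after washout on day 6 and 35.2 to 36.7 CPM after washout on day 4. The part of these cell types in the levels of the 4 genes was not tested.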

How the data were processed

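The deposited table holds the authors' raw read counts, whole numbers for each gene and library. The submitters' processing notes name STAR, HTSeq, edgeR and mm10; their versions, the annotation and the use of strand were not stated in any source used here. Groups and replicate numbers come from the sample titles. Of 51697 named genes, 23831 passed filterByExpr of edgeR 4.0.16 (R 4.3.3; minimum count 10, minimum total 15); 1 nameless line was dropped. Library sizes were scaled by TMM, CPM uses those sizes, and a quasi-likelihood model was fitted to the 24 libraries with a mean for each of the 12 groups (common dispersion 0.0439). P-values were adjusted by Benjamini-Hochberg over all tested genes, and a gene counted as changed below 0.05. The pipeline was tested on simulated data.

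The 4 genes, the gene lists and the comparisons were chosen with earlier results of these data known. Named genes are the members, their neighbours, other RGS genes, up to 4 changed genes of each other list with the largest changes, and the 3 genes most like each member; Ctcf, unchanged subunit and pathway genes and single markers were added, and some neighbours are counted but not reported here by name. Gene positions and exon lengths are from GENCODE vM21, promoter sequences from RefSeq. Same-numbered libraries deviated together among the 6 pairs of ES groups (r of replicate differences across genes 0.144 to 0.515) but not among the groups tested here (-0.052 to 0.004). Alternatives were other size factors, no filter, DESeq2 1.42.0, a replicate block, the 16 differentiation libraries alone (common dispersion 0.0051), halved counts, leaving out each library and, added after seeing the data, the 8 untreated libraries alone.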

Additional observations from a re-analysis of the deposited data

Results flagged for a closer look

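Rgs8 was higher in both auxin libraries at ES 24 h than in both ES 0 h libraries, and lower in both auxin libraries on day 6 than in both control libraries. The log2 fold changes, 1.75 at ES 24 h and -2.64 on day 6, differ by 4.39. Rgs16 was higher in both auxin libraries on day 2 and lower in both on day 6, and its log2 fold changes of 0.33 and -1.65 differ by 1.97. The day 2 value of Rgs16 is within its standard error of 0.42. Each difference is the widest of its kind among the auxin comparisons of that gene. The share of all genes with such a difference was not counted. Neither difference was tested, since these contrasts chose the genes. The ES 24 h value of Rgs8 rests on 4 and 12 reads with auxin and 2 and 2 reads at 0 h.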

How the results depend on the processing

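Of 152 recomputed values of the tested comparisons that kept every library of the groups compared, 138 kept their direction and their side of the threshold and 14 passed where the fit of 24 libraries did not. For Rgs8, day 4 over day 2 control cells passed with DESeq2 size factors (1.02), DESeq2 (1.02), the 16 differentiation libraries alone (1.02) and halved counts (1.00). For Rgs4, day 6 over day 4 control cells passed with DESeq2 (0.56) and the 16 libraries (0.54), and day 6 over day 4 washout with DESeq2 (0.95), the 16 libraries (0.94) and halved counts (0.95). Rgs5 on day 4 over ES 0 h passed with no filter (1.27). The 16 libraries alone also called Rgs16 on day 4 over day 2 (-0.59) and day 6 over day 4 (0.78), and Rgs8 (1.20) and Rgs5 (0.58) between washouts. The replicate block changed no call of a member, with Rgs4 on day 6 over ES 0 h at 6.43. On day 6 under auxin, 2 neighbours passed with the block, with DESeq2 or with no filter, and 9 with the 16 libraries alone, against 1.

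With 1 library left out, day 2 over ES 0 h ran from -0.41 to 1.23 for Rgs16 and from -1.17 to 0.028 for Rgs5, and Rgs16 ran from -1.01 to 0.62 on day 4 and from -0.25 to 1.39 on day 6 over ES 0 h. These ranges cross 0, and each crossing came with 1 ES 0 h library left out. Rgs5 ran from 1.62 to 2.09 for day 4 over day 2 and from 2.00 to 2.39 for day 6 over day 4, and passed in none of these fits, where fewer libraries were compared. Of the described values, Rgs16 for day 4 washout over day 6 auxin moved from 1.34 to 1.37 with DESeq2 size factors, no filter, DESeq2 and halved counts, and to 1.36 with the 16 libraries, by more than its small replicate SD, and ran from 1.35 to 1.37 with a library left out. Rgs16 on day 6 under auxin was -1.68 with no filter and ran from -1.68 to -1.64 with a library left out. At ES 24 h, Rgs4 ran from 0.89 to 2.78 and Rgs8 from 1.25 to 2.16, and at ES 48 h Rgs8 from 0.93 to 1.84. The number of neighbours changed ran from 0 to 0 on day 6 under auxin and from 6 to 8 for day 6 over ES 0 h, against 10 with all libraries. The cause of these changes was not tested. Rgs8 and Rgs4 had few reads in ES cells, which limits their values there.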

Other observations

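Other lists were counted on day 6 under auxin by the same edgeR test, by which 6.56% of all tested genes changed. Of 7 tested genes of other RGS-box proteins, 0 were higher and 0 lower, and 3 had an unadjusted p below 0.05. Of 6 endothelial markers, 1 was higher and 1 lower, with a summed level of 68.8 to 69.7 CPM in day 6 auxin cells, against 39.6 to 40.8 CPM in day 6 control cells. Of 8 fibroblast markers, 0 were higher and 1 lower, at 677 to 681 CPM in day 6 auxin cells, against 751 to 782 CPM in day 6 control cells. After washout on day 6 the fibroblast markers summed to 1390 to 1430 CPM. In ES 0 h cells the endothelial markers summed to 181 to 228 CPM and the fibroblast markers to 180 to 286 CPM.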
